A study of Mus musculus with 2 samples.

Results

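Transcripts of the TGF-beta, activin and BMP pathway were read in cultured mouse CD8 T cells, as 50 named genes out of the 19505 genes on the array. The genes were taken by symbol from the platform annotation, and all 50 had a probe set, 1 each. They are ligands, receptors, SMAD proteins and regulators, and they are described below in 11 groups by role. CD8 T cells of mouse spleen and lymph node were activated through CD3 and CD28, polarized for 3 days and cultured for 2 more days with 10 ng/mL recombinant human IL-2. The Tc1 culture was polarized with IL-2 at 10 ng/mL, and the Tc9 culture with TGF-beta at 1 ng/mL, IL-4 at 10 ng/mL and the interferon gamma blocking antibody XMG1.2 at 20 µg/mL. Tc1 cells are the interferon gamma producing form of CD8 T cell and Tc9 cells the interleukin 9 producing form. The labels give no strain, age or genotype. The stated aim was to find genes with more expression in Tc9 than in Tc1 cells. There was 1 Affymetrix array per culture at day 5, so no difference below has a replicate check, and no test, error or p-value is given.

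TGF-beta ligands are secreted in a latent form, and once released they bring a type II and a type I receptor kinase together. The type I kinase phosphorylates SMAD2 and SMAD3, which enter the nucleus with SMAD4. BMPs work in the same way through SMAD1, SMAD5 and SMAD9, and activins share SMAD2 and SMAD3 with TGF-beta. The pathway also switches on its own inhibitors. In CD8 T cells TGF-beta is known to raise the integrin chain CD103 and to restrain the cytotoxic program, and together with IL-4 it drives interleukin 9 production.

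Signals are the log2 of the deposited values, and differences are Tc9 minus Tc1. Because the table has no calls of presence, a signal of 6.43, which is the median over all genes and both arrays, served as the detection threshold. A gene counted as detectable if at least 1 array reached it, as was so for 10147 genes. Where 1 array lay below that line, the fold is a lower bound with 6.43 in place of the dim value, written as "at least", and genes below it on both arrays get no fold. Signals of different probe sets are not comparable with each other, so no gene's level is set against another's, and a sum over markers is set only against the sum of the same probe sets on the other array. The array labelled Tc9 by its title carries a source name that says Tc1. Il9 was at 4.82 in the Tc1 culture and 8.45 in the Tc9 culture, and Ifng at 9.28 and 7.57, which are the directions that the titles name. All 9 measured CD8 T cell markers were detectable on both arrays, with Cd3e at 12.92 and 12.80 and Cd8a at 12.19 and 11.93.

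By measured signal, 4 of the 50 genes were higher on the Tc9 array by 2-fold or more, a share of 8.0%, and none was lower by as much. The 4 were Ldlrad4, Tgfbr1, Tgfb3 and Bmpr1a. By the same measure, dim genes included, 1.8% of all 19505 genes were higher and 2.08% lower. With bounds in place of dim values the count was 3, since Bmpr1a was then at least 1.24-fold higher. It was 1, Tgfbr1, with the stricter control line given at the end. The remaining 46 genes lay within 2-fold. The gene that passed by the least was Bmpr1a, with a difference of 1.07, and the one that missed by the least was Acvr1, at 0.93 and dim on both arrays. The median difference of the 50 genes was 0.14, against 0.00 over all genes, and 34 of the 50 had a higher signal on the Tc9 array by any amount, where 50.5% of all genes did. In these bulk samples, fewer cells that express a gene and less RNA per cell cannot be told apart.

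Whether a gene was bright enough to read shaped these counts. Of the 50, 24 were detectable on both arrays, 5 on the Tc9 array only, 2 on the Tc1 array only, and 19 on neither. Over all 19505 genes these counts were 9358, 337, 452 and 9358. By these counts 62.0% of the 50 genes and 52.0% of all genes were detectable. A gene that reaches the line on 1 array only had to differ, and 3 of the 4 genes past 2-fold, Ldlrad4, Tgfb3 and Bmpr1a, were of that kind. For comparison, 2.62% of all detectable genes were higher on the Tc9 array by 2-fold or more, and 2.79% were lower by as much. Among the 24 genes read on both arrays, Tgfbr1 alone was 2-fold higher, and none was 2-fold lower. Over all genes read on both arrays these shares were 1.58% and 1.88%. At a smaller size of 1.5-fold, which was chosen after the values were seen, 6 of the 24 were higher and 2 were lower, shares of 25% and 8.33%, where all genes read on both arrays gave 6.41% and 5.02%. By any amount, 19 of the 24 were higher on the Tc9 array, against 57.5% of the genes read on both.

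**Figure D1:**
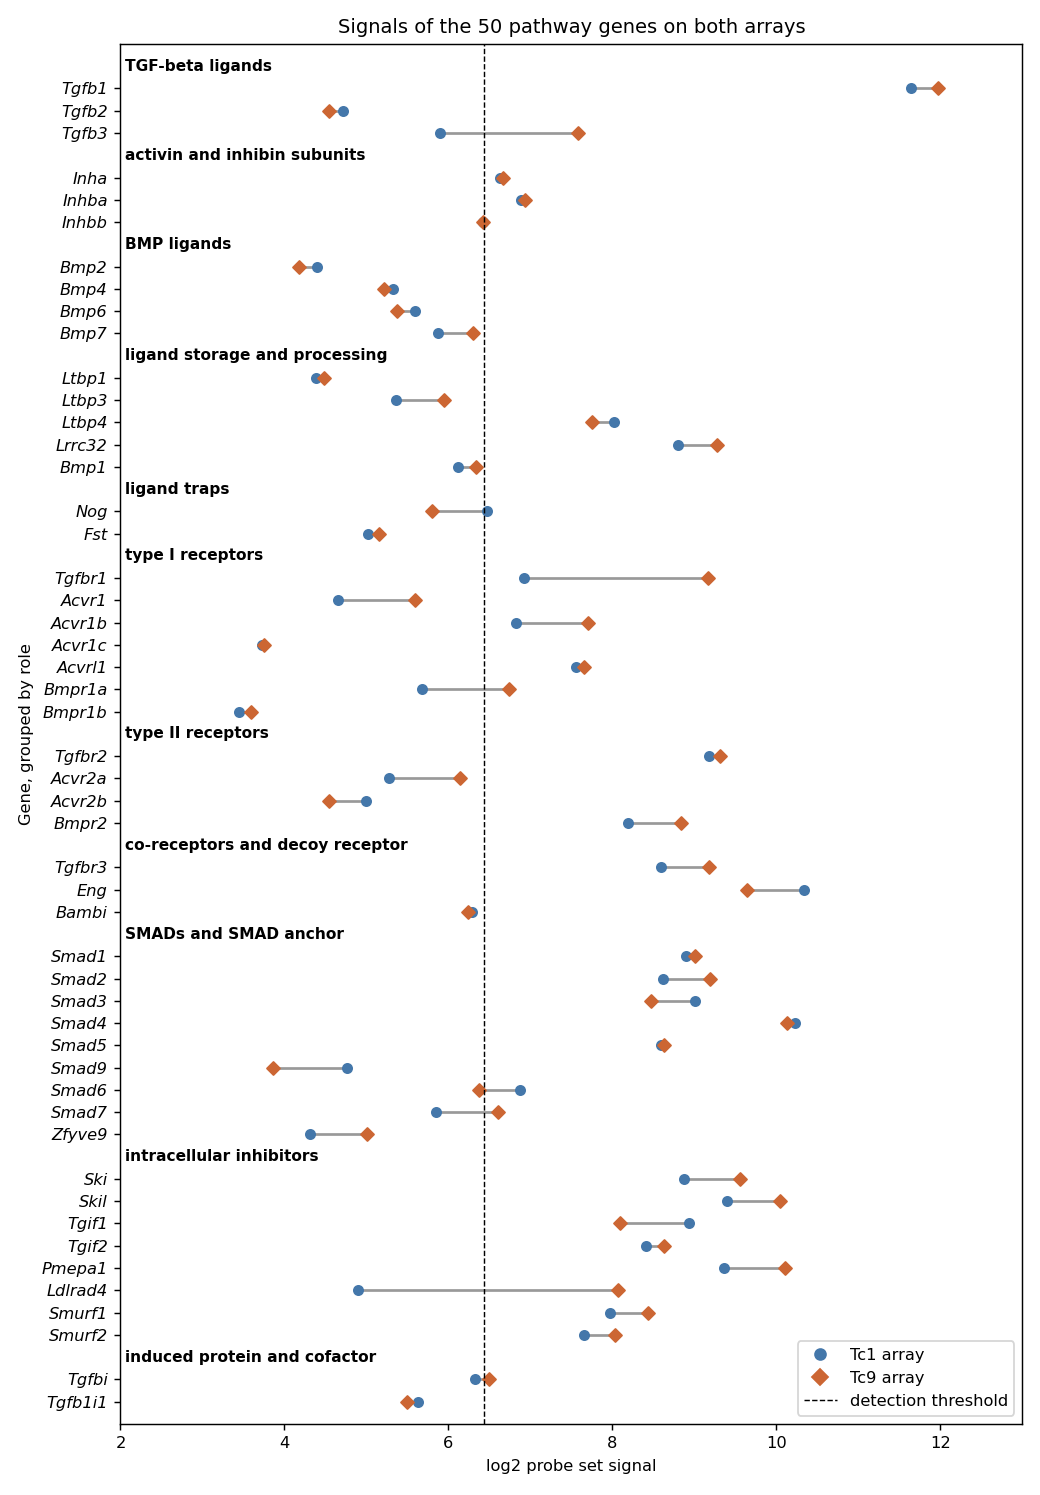
Log2 probe set signals of the 50 pathway genes, grouped by role, with a circle for the Tc1 array and a diamond for the Tc9 array, joined by a line, and 1 array per culture. The dashed line is the detection threshold of 6.43. Tgfbr1 and Ldlrad4 have the longest lines to the right, and all 4 BMP ligands lie left of the threshold on both arrays.

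Of the 3 TGF-beta ligands, Tgfb3 differed the most by measured signal. Tgfb1, the main isoform made by lymphocytes, was at 11.64 in the Tc1 culture and 11.96 in the Tc9 culture, 1.25-fold higher in Tc9 cells. Tgfb3, a second isoform that binds the same receptors, was at 5.90 and 7.57, at least 2.21-fold higher. It was below the threshold on the Tc1 array, so only the bound can be read. Against the stricter control line given at the end, the bound of Tgfb3 was 1.21-fold, beside 1.25-fold for Tgfb1. Tgfb2, the third isoform, was dim on both arrays, at 4.71 and 4.54.

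Activin and BMP ligands gave little signal in either culture. Inhba, the subunit of activin A, was at 6.89 and 6.94, and Inha, which pairs with the beta subunits to make inhibin, was at 6.63 and 6.67. Both were just above the threshold and differed by 0.05 or less. Inhbb, a second beta subunit, was at 6.42 on both arrays, below the line. Bmp2, Bmp4, Bmp6 and Bmp7 were dim on both, with signals between 4.17 and 6.3.

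Among proteins that store or process the ligands, 2 of 5 were detectable. Lrrc32 encodes GARP, which holds latent TGF-beta on the surface of regulatory T cells and platelets. It was at 8.80 in the Tc1 culture and 9.27 in the Tc9 culture, 1.39-fold higher. Ltbp4, a latent TGF-beta binding protein of the matrix, was at 8.02 and 7.75, 1.21-fold lower. Ltbp1 and Ltbp3, its relatives, and Bmp1, a protease that processes procollagen and latent complexes, were dim on both arrays, between 4.39 and 6.33. Of the secreted traps, Nog, which encodes the BMP antagonist noggin, was at 6.47 and 5.80, at least 1.03-fold lower, and Fst, which encodes the activin trap follistatin, was dim at 5.02 and 5.15.

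The receptors differed most in the type I group, through Tgfbr1 and Acvr1b. All 7 type I receptor genes had a higher measured signal on the Tc9 array, where 50.5% of all genes did, but 3 of the 7 were dim on both arrays. The median difference of the 7 was 0.88 by measured signal and 0.09 with dim values at the threshold, against 0.00 over all genes either way. Tgfbr1, the type I receptor for TGF-beta, was at 6.93 in the Tc1 culture and 9.16 in the Tc9 culture, 4.71-fold higher. On the linear scale its signals were 121.6 and 572.5. The difference of 2.23 ranked 54th of the 10147 detectable genes toward Tc9 by measured signal. Acvr1b, the activin type I receptor ALK4, was at 6.82 and 7.70, 1.85-fold higher. Bmpr1a, the BMP type I receptor ALK3, was at 5.68 and 6.74, so that its bound was at least 1.24-fold, well short of its measured difference.

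The other type I receptors were close to equal or too dim to read. Acvrl1, the endothelial receptor ALK1, was at 7.56 and 7.65, a difference of 0.09. Acvr1, the BMP receptor ALK2, was dim at 4.66 and 5.59. Acvr1c, the receptor ALK7, was at 3.72 and 3.75, and Bmpr1b, the BMP receptor ALK6, at 3.44 and 3.59, both below the threshold. Of the 7 type I receptors, 4 were therefore detectable, 3 of them on both arrays.

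Promoter sequence is shown for Tgfbr1 and Bmpr1a, the type I receptors past 2-fold by measured signal. Both lie in the RefSeq promoter table of build GRCm38.p6, which held 33 of the 50 genes. Each run is the 250 bases upstream of an annotated start site, 5′ to 3′ on the gene's strand. Capitals mark matches to the motifs searched on both strands: GTCTAGAC, a palindromic SMAD element, CAGAC, the SMAD box, GGCGCC, a GC-rich SMAD element, and the STAT6 element, which is TTC and GAA with 4 bases between. Coordinates are chr4:47352972-47353221 on the plus strand for Tgfbr1 and chr14:34502547-34502796 on the minus strand for Bmpr1a.
Tgfbr1: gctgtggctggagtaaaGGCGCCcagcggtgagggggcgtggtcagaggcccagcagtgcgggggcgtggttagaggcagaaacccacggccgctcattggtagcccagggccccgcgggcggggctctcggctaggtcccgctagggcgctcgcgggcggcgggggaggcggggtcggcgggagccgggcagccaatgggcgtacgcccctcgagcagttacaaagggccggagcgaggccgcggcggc
Bmpr1a: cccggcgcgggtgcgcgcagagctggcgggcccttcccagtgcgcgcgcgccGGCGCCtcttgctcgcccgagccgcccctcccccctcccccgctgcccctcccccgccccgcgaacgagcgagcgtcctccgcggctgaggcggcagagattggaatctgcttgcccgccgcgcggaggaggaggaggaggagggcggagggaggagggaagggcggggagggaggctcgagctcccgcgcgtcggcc

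Both windows held GGCGCC once and none of the other motifs, at -233 to -228 from the start site in Tgfbr1 and at -198 to -193 in Bmpr1a. The windows are rich in G and C, at 74.8% and 78.8%. GGCGCC occurred in 9.59% of the 32851 promoter windows in the table and in 10 of the 46 windows of the pathway genes. CAGAC occurred in 42.2% of all windows and in 20 of the 46, the STAT6 element in 5.85% and in 1 of the 46, and GTCTAGAC in 0.167% and in none. A second Tgfbr1 start site in the table had 1 CAGAC and no other match. A match is a run of letters and not a measured binding site.

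Type II receptors, which bind the ligand and phosphorylate the type I partner, lay within 2-fold. Tgfbr2, the partner of Tgfbr1, was at 9.18 in the Tc1 culture and 9.32 in the Tc9 culture, 1.10-fold higher. Bmpr2, the BMP type II receptor, was at 8.19 and 8.83, 1.56-fold higher. The activin type II receptors Acvr2a and Acvr2b were dim on both arrays, at 5.28 and 6.14 and at 4.99 and 4.54. The TGF-beta receptor pair thus showed 4.71-fold for the type I chain beside 1.10-fold for the type II chain on the same arrays. Against the stricter control line given at the end, the type I chain was at least 3.63-fold higher.

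The co-receptors went in opposite directions. Tgfbr3, which encodes betaglycan and presents TGF-beta to the signalling receptors, was at 8.60 and 9.18, with a difference of 0.58 toward the Tc9 array. Eng, which encodes endoglin, a co-receptor known from endothelium that binds BMP9 and TGF-beta, was at 10.34 and 9.64, 1.62-fold lower. Bambi, a decoy receptor with no kinase domain, was dim on both arrays, at 6.28 and 6.24.

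Of the 9 genes in the SMAD group, none differed by 2-fold, and the median difference was 0.03. The 2 SMADs of the TGF-beta and activin branch differed in opposite directions. Smad2 was at 8.62 in the Tc1 culture and 9.19 in the Tc9 culture, 1.49-fold higher. Smad3 was at 9.01 and 8.47, 1.46-fold lower. Smad4, the shared partner, was at 10.22 and 10.13, a difference of -0.09.

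The SMADs of the BMP branch were nearly equal on both arrays where they could be read. Smad1 was at 8.90 and 9.01, 1.08-fold higher. Smad5 was at 8.60 and 8.63, a difference of 0.03 that turned to -0.043 after quantile normalization. Smad9, the third BMP SMAD, was dim, at 4.76 and 3.86. Zfyve9 encodes SARA, which anchors SMAD2 and SMAD3 at the receptor, and was dim at 4.31 and 5.01.

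The inhibitory SMADs each reached the threshold on 1 array. Smad7, which blocks type I receptors and is induced by TGF-beta, was at 5.85 and 6.61, at least 1.13-fold higher in Tc9 cells. Smad6, which mainly restrains BMP signalling, was at 6.87 and 6.38, at least 1.36-fold lower.

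Inhibitors that act inside the cell formed the only role group with all members detectable. Of these 8 genes, 7 had a higher signal on the Tc9 array, under both other scalings too. By measured signal, 5715 of all 10147 detectable genes did. In the group, 1 gene was past 2-fold, where 2.62% of all detectable genes were as much higher. The median difference of the 8 was 0.55, against 0.00 over all genes and 0.05 over the detectable ones. Ldlrad4 encodes a membrane protein that sequesters SMAD2 and SMAD3 from the receptor. It was at 4.89 in the Tc1 culture and 8.07 in the Tc9 culture, at least 3.11-fold higher. It was below the threshold on the Tc1 array, as Tgfb3 was. Pmepa1, its relative, which acts in the same way and is a known TGF-beta target, was at 9.36 and 10.10, 1.67-fold higher.

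The SMAD co-repressors split. Ski was at 8.88 and 9.55, 1.60-fold higher, and Skil, which encodes SnoN and is itself induced by TGF-beta, was at 9.40 and 10.04, 1.56-fold higher. Tgif1, a homeodomain co-repressor of SMAD2, was at 8.94 and 8.09, 1.80-fold lower, while its relative Tgif2 was at 8.41 and 8.63, 1.17-fold higher. The ubiquitin ligases Smurf1 and Smurf2, which mark SMADs and receptors for degradation, were at 7.97 and 8.43 and at 7.65 and 8.04, 1.37-fold and 1.31-fold higher.

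Of the last 2 genes, Tgfbi, a matrix protein named for its induction by TGF-beta, was at 6.32 in the Tc1 culture and 6.49 in the Tc9 culture, at least 1.04-fold higher. Tgfb1i1, which encodes the adaptor HIC-5, was dim on both arrays, at 5.62 and 5.5.

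**Figure D2:**
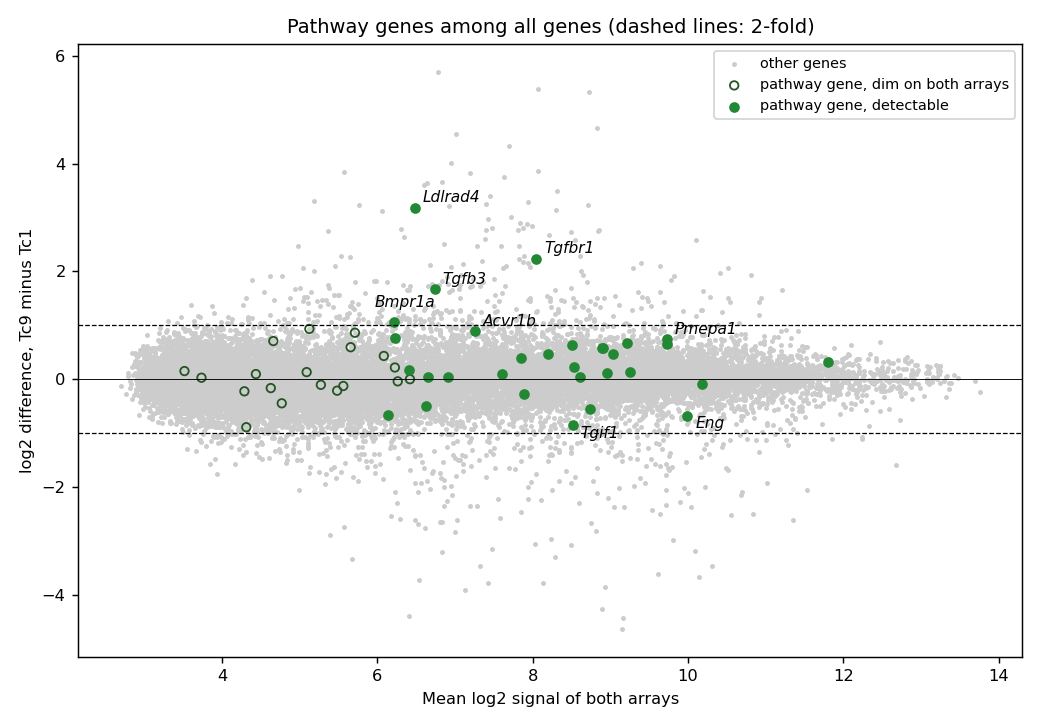
Difference in log2 signal, Tc9 minus Tc1, against the mean log2 signal of both arrays, for the 50 pathway genes (green, filled where detectable) and all other genes (grey). The dashed lines mark 2-fold. The 4 green points above the upper line are Ldlrad4, Tgfbr1, Tgfb3 and Bmpr1a, of which only Tgfbr1 was above the threshold on both arrays, and no green point lies below the lower line.

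Other genes of the pathway were read from 7 lists of 110 genes, of which 101 were measured. Counts past 2-fold in these lists are by measured signal and stand beside the same 1.8% higher and 2.08% lower over all genes. Of 21 measured superfamily ligands, 17 were dim on both arrays and no detectable one was past 2-fold. Gdf5, a BMP-like ligand named after its values were seen, differed by -1.07 but was dim on both arrays, so it has no fold. None of 17 other antagonists and co-receptors was past 2-fold. Among 10 genes that activate latent TGF-beta, none was 2-fold higher and 1 was 2-fold lower. That gene was Thbs1, which encodes thrombospondin 1, at 6.72 and 5.33, at least 1.22-fold lower.

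The regulators of SMADs and receptors outside the 50 genes were mostly equal on both arrays. Of 26 measured, 23 were detectable on both arrays, none was 2-fold higher, 1 was 2-fold lower, and the median was 0.05. The exception was Sik1, a salt-inducible kinase that TGF-beta induces and that promotes receptor turnover, at 10.09 and 8.60, 2.81-fold lower in Tc9 cells.

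Genes that TGF-beta is known to induce lay on both sides. Of 12 measured, 3 were at least 2-fold higher, 1 was 2-fold lower, and the median difference was -0.08. Over all genes 1.8% were as much higher and 2.08% as much lower, with a median of 0.00. Over detectable genes, of which the list had 10, these values were 2.62%, 2.79% and 0.05. The list was chosen with earlier results of these data known, so its counts are descriptive only. The 3 were Itgae, which encodes CD103, at 5.38 and 10.76, at least 20.1-fold higher, Spsb1 and Cdh1. Spsb1, a ubiquitin ligase adaptor that restrains TGF-beta signalling through the type II receptor, was at 7.12 and 9.86, 6.67-fold higher. Cdh1, which encodes the CD103 ligand E-cadherin, was at 6.61 and 8.71, 4.29-fold higher. Against the stricter control line, Cdh1 was at least 2.66-fold, Spsb1 at least 5.89-fold and Itgae at least 11.0-fold higher. Gadd45b, a stress gene, was at 8.72 and 7.62, 2.13-fold lower.

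Of 5 BMP target genes, 1 was past 2-fold toward Tc9 and none toward Tc1. Id2, a partner of bHLH factors that effector T cells also use, was at 10.32 in the Tc1 culture and 11.51 in the Tc9 culture, 2.27-fold higher. Id1, a common reporter of BMP signalling, differed by 0.65, and Id3 by -0.39, both chosen for naming after their values were seen.

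Of 10 measured genes that TGF-beta is known to repress in T cells, 6 were at least 2-fold lower on the Tc9 array and none was higher by as much, with a median of -1.17, where 2.08% of all genes were as much lower. All 6 were detectable on both arrays, where that share was 1.88%. This list too was chosen with earlier results of these data known. It holds Ifng, whose direction was already read to check the array labels, so its count is descriptive only. Tbx21, the type 1 transcription factor T-bet, was at 9.56 and 6.50, 8.30-fold lower. Ifng was 3.27-fold lower, and Gzmb, the protease granzyme B, was at 13.47 and 11.88, 3.01-fold lower. Fasl, a death ligand, was at 8.06 and 6.56, 2.84-fold lower. Against the stricter control line, Tbx21 was at least 5.81-fold and Fasl at least 2.06-fold lower. The Tc9 medium held IL-4 and an interferon gamma antibody beside TGF-beta, and IL-2 is named for the Tc1 polarization only. The parts of these agents in any difference cannot be told apart.

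**Figure D3:**
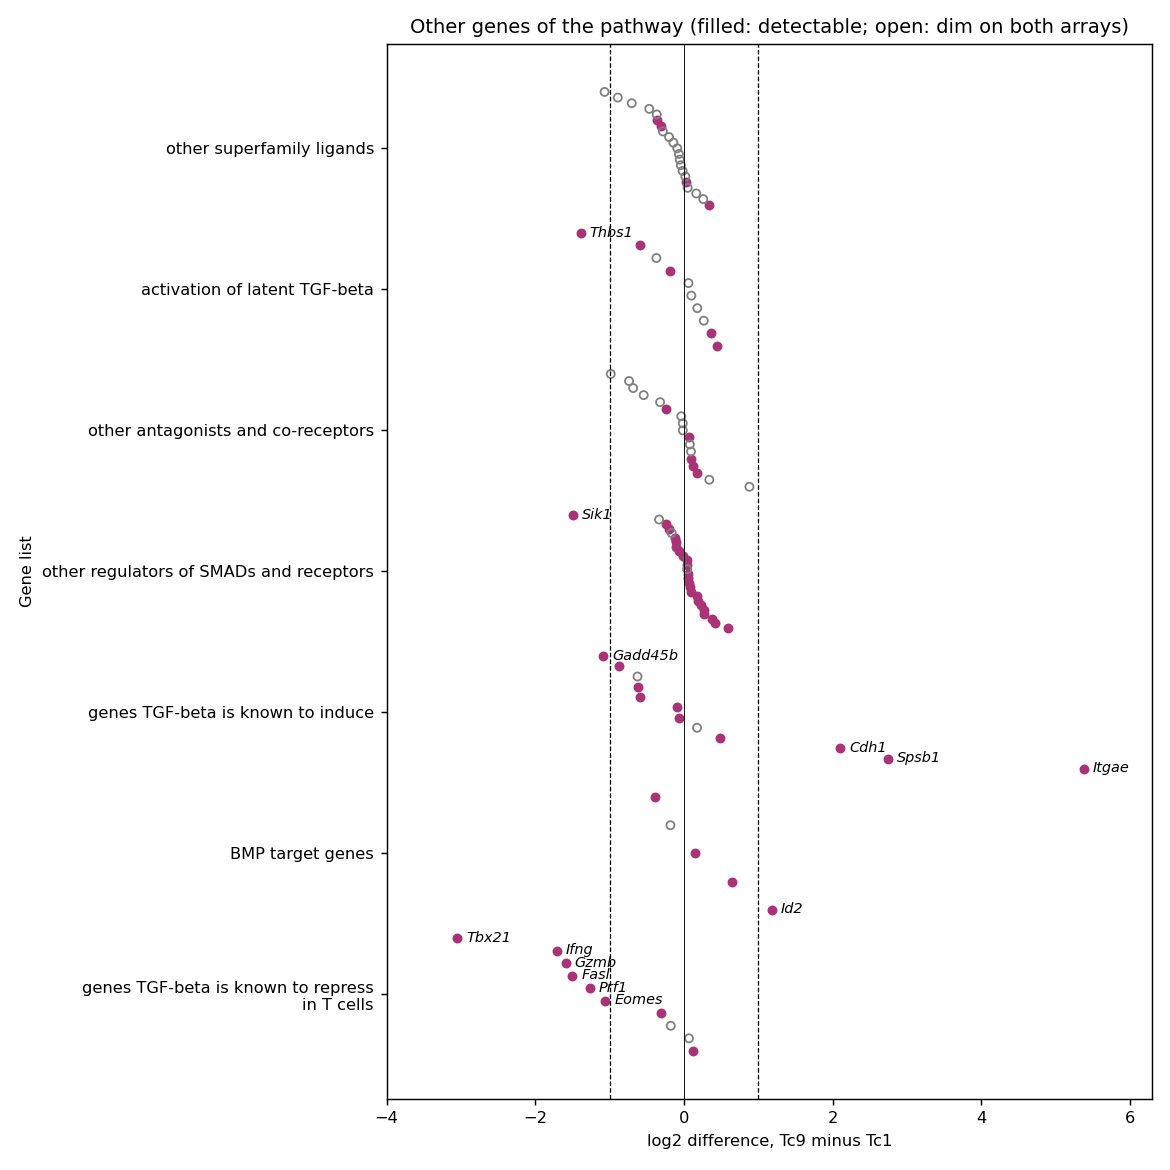
Difference in log2 signal, Tc9 minus Tc1, of the 101 measured genes in 7 lists, 1 point per gene, filled where detectable and open where dim on both arrays, with dashed lines at 2-fold. Names are given for detectable genes past 2-fold. The points past the right line are Itgae, Spsb1, Cdh1 and Id2, and most named points past the left line belong to the list of repressed genes.

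Markers of other cells that make or sense these ligands were read beside the pathway genes, and their part in the differences was not tested. Endothelial cells, known for Eng and Acvrl1, had 2 of 9 markers detectable, Esam at 8.43 and 8.22 and Pecam1 at 8.14 and 8.18, while Cdh5, Kdr and Tek were below the threshold, and the summed linear signal was 820.1 for Tc1 and 755.6 for Tc9. Of 9 monocyte and macrophage markers, 3 were detectable. They were Lyz2 at 8.36 and 8.79, C1qb at 6.46 and 6.97 and Fcgr1 at 6.65 and 6.21. Csf1r, Adgre1 and Cd14 were below the threshold, as was Mrc1 at 3.55 and 5.05, and the sums were 737.0 and 903.5. Of these 9 markers, 7 had a higher measured signal on the Tc9 array and 2 a lower one. Fibroblast markers were detectable for 2 of 7, Col1a1 at 7.22 and 6.98 and Pdgfrb at 6.08 and 6.47, with sums of 371.8 and 362.0. Dendritic cell markers were detectable for 1 of 6, Zbtb46 at 6.84 and 5.58, with Itgax at 5.35 and 6.41 and sums of 223.2 and 212.4.

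All 8 measured B cell markers were detectable and lower on the Tc9 array, except that Ebf1 turned to higher after median centring. Cd79a was at 10.65 and 9.68, Cd79b at 9.92 and 9.50 and Fcrla, past 2-fold, at 6.80 and 5.52, with sums of 4629 and 3246. Markers of platelets, which are known for Tgfb1 and Lrrc32, were detectable for 5 of 7. Itgb3, an integrin chain that is not limited to platelets, was at 8.83 and 10.45, 3.06-fold higher in Tc9 cells, and Itga2b was at 6.78 and 5.77 and Pf4 at 7.48 and 7.45, while Gp6 and Ppbp were below the threshold. The platelet sums were 1014 and 1862 with Itgb3 and 558.2 and 468.2 over the 6 markers without it, and 5 of the 7 markers were lower in Tc9 cells. Regulatory and CD4 T cell markers were detectable for 4 of 4, with Ctla4 at 12.01 and 11.63, Il2ra at 10.78 and 11.14, Cd4 at 9.33 and 8.74, Ikzf2 at 8.35 and 7.40 and sums of 6845 and 6029. Of the CD8 T cell markers, Cd5 was 3.15-fold and Cd6 3.11-fold lower in Tc9 cells, and the sums were 30944 and 25625.

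A stricter detection line changed the bounds of the leading genes. The 95th percentile of the control probe sets with neg in their ID was 7.30 for Tc1 and 7.02 for Tc9. Against these values Tgfbr1, dim on the Tc1 array, was at least 3.63-fold higher, Ldlrad4 at least 1.70-fold, Acvr1b at least 1.32-fold and Tgfb3 at least 1.21-fold, and Bmpr1a, Smad7, Smad6, Nog, Inha, Inhba and Tgfbi were dim on both arrays. Of the 50 genes, 24 were detectable by this line, 20 of them on both arrays. Of the 585 such controls that reached 6.43 on at least 1 array, 16.2% differed by 2-fold or more, 22 higher and 73 lower on the Tc9 array. Of the 1158 control probe sets with pos in their ID that did so, 1.30% differed by as much, 12 higher and 3 lower.

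**Figure D4:**
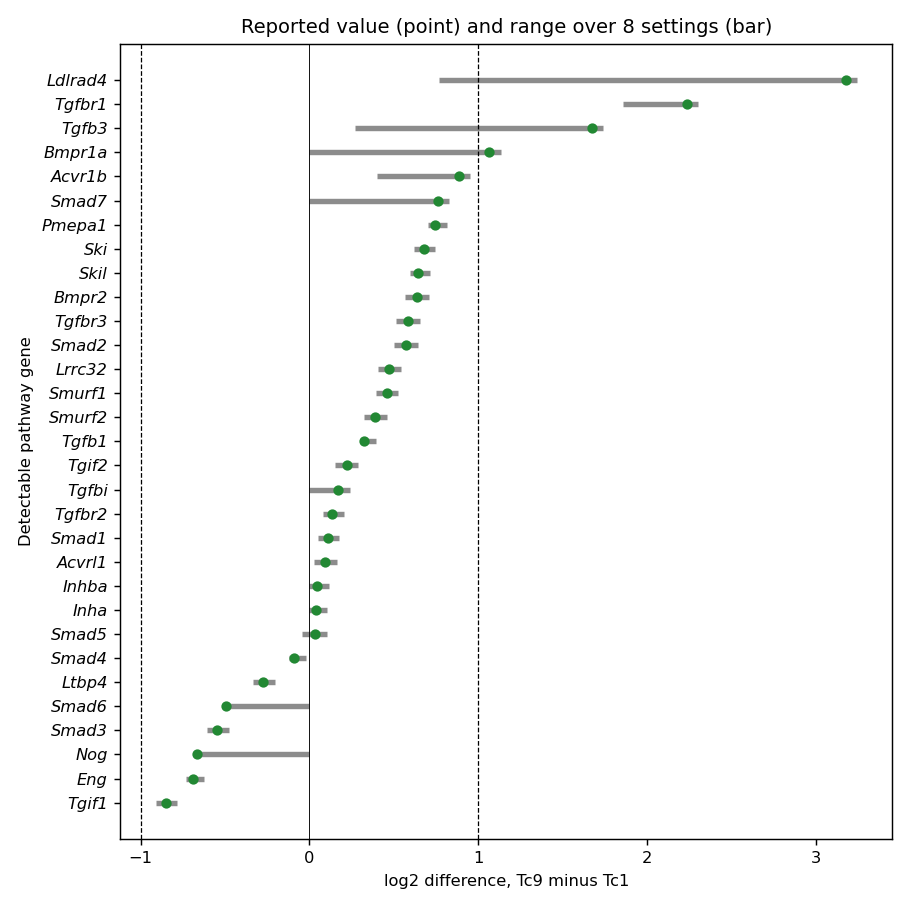
Differences in log2 signal, Tc9 minus Tc1, of the 31 detectable pathway genes, with a point for the measured value, a bar for the range over 8 settings of scaling, pseudocount, threshold and probe set rule, and dashed lines at 2-fold. A gene with no bound at the control line is set to 0 in that setting. Bars are measures of processing and not replicate errors. Tgfbr1 runs from 1.86 to 2.30 and stays past 2-fold, while Ldlrad4 runs from 0.77 to 3.25, Tgfb3 from 0.27 to 1.74 and Bmpr1a from 0 to 1.14.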

How the data were processed

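Total RNA was labelled with biotin by a whole-transcript sense method, per the labels' protocols, and hybridized to 1 Affymetrix array per culture. The deposited table holds linear intensity values, 1 per probe set and array. How the authors corrected background, summarized probes and normalized is not given in the sources used here. The range was 5.12 to 14977 for Tc1 and 4.87 to 13045 for Tc9. Since upper quartiles lay close together, at 330.5 and 346.2, no further normalization was applied. Of 28846 probe sets, 19572 had 1 gene symbol in the platform annotation, giving 19505 genes. Where a gene had more than 1 probe set, as 55 genes did, the brighter was used, and each of the 50 pathway genes had 1. All Entrez numbers matched the GRCm38.p6 RefSeq table, which changed no symbol, and 2 listed symbols were updated through its synonyms.

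Differences, counts, medians and bounds were computed with Python 3.11.15, numpy 2.4.6 and pandas 2.3.3, and the counting was tested on simulated data. The simulated shifts were planted in bright genes only, so recovery was not checked for dim genes. The number of arrays limits the precision. The 50 genes and all lists were chosen with earlier results of these data known. The rule for naming took every detectable pathway gene, up to 4 detectable genes past 2-fold from each other list, and from each marker list the 2 brightest and any detectable gene past 2-fold. Further markers were named after their values were seen, as defining or dim markers or as the rest of a short list. Alternatives were quantile normalization, median centring, dim values at the threshold, a threshold from control probe sets, a pseudocount of 16 and the mean of probe sets. Genes of the lists without a probe set were not analysed here.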

Additional observations from a re-analysis of the deposited data

How the results depend on the processing

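Leaving out a replicate was not possible with 1 array per culture, and a value here counts as stable where it kept its sign and its side of 2-fold, or, for a count, stayed within 1.5 times. The count of 4 pathway genes higher by 2-fold or more was 5 after quantile normalization or median centring, and 3 with the pseudocount or dim values at the threshold, with 0 lower under each. The gene added by either scaling was among those dim on both arrays without further scaling, so it has no fold. The mean of probe sets and the control line used for detection alone leave measured differences, and so the count of 4, as they are. Of 2 alternatives added after seeing the data, dim values at the control line gave 1 higher gene, Tgfbr1, with Ldlrad4 at 0.77 and Tgfb3 at 0.27, and a size of 1.5-fold gave 14 higher and 4 lower. At that size, dim genes included, 1331 of all 19505 genes were higher and 1549 were lower. The median difference of 0.14 ran from 0.00 to 0.21, and was 0.00 with dim values at the threshold, where 19 of the 50 genes have no difference by construction, or at the control line. Bmpr1a dropped under 2-fold with dim values at the threshold, at 0.31, and with the pseudocount, at 0.87. Smad5 turned to -0.043 after quantile normalization. Among the other lists, the single superfamily ligand 2-fold lower became 0 genes with dim values at the threshold or the control line, median centring, the pseudocount and quantile normalization, and the single gene of latent TGF-beta activation became 0 with dim values at the threshold or the control line. Median centring shifted differences by 0.07. With it, 36 of the 50 genes and 58.3% of all genes were higher on the Tc9 array by any amount. Without further scaling these were 34 genes and 50.5%, and after quantile normalization 35 genes and 50.3%. The causes of these moves were not tested. No paired analysis was possible because each culture has 1 array. Low signal limits what can be read for the 19 genes that were dim on both arrays.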
